A study of Mus musculus with 2 samples.

Results

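The circadian clock genes described here were 10 genes, taken by symbol from the 55487 genes that each deposited table lists: the activators Clock, Arntl and Npas2, the repressors Per1, Per2, Per3, Cry1 and Cry2, and the clock-controlled genes Dbp and Ciart. Arntl is also known as Bmal1, and Ciart as Chrono. All 10 symbols had 1 row in each table. The rule that picks them reads no measured value, but the members were chosen with earlier results of these data known. RNA was sequenced from beta cells, which make insulin in the pancreatic islets, purified by fluorescence-activated cell sorting from mice 2 months old. Both libraries formed 1 group, mutant cells that carried homozygous floxed alleles of 3 myelin transcription factor genes, MytF/F, Myt2F/F and Myt3F/F (Myt1, Myt1l and St18 in the files), and in addition RipCre, in which an insulin promoter of the rat drives Cre. Cells in which Cre had not acted were not told apart. The labels give the sex as pooled male and female. Library 2 is labelled a duplicate, and nothing says whether it came from other mice, so an SD measures only how these samples vary, which may be technical. Intervals and p-values rest on the reads of each library and cover counting error only. Control cells were not analysed here, and no value below compares mutant with control cells.

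The mammalian clock is a feedback loop of transcription that runs in nearly every cell, with a period of about a day. CLOCK, or its paralog NPAS2, pairs with ARNTL and binds E-box elements of the Per and Cry genes and of output genes. PER and CRY proteins then gather and shut off that activation. A second loop links in through the nuclear receptors REV-ERB (Nr1d1, Nr1d2), which repress, and ROR, which activate, Arntl, Cry1, Npas2 and Nfil3. DBP and its relatives bind D-box elements and so pass the rhythm on, and NFIL3 competes with them there. Transcripts of Dbp, Ciart, Per3 and Nr1d1 are known to peak at hours when those of Arntl and Npas2 are low. In islets the clock is known for its part in the daily rhythm of insulin secretion. The hour of the day at which islets were taken is not given in the sources used here, so each level below belongs to an unknown clock time.

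The promoter windows of 5 members are shown because they hold letters of the elements by which the loop is wired. Among them is the highest member, Per1. Cry2 also held a match and its window is not shown. Dbp, the member that differed most between the libraries, held none. Whether a match goes with a difference between the libraries was not tested. Each is a RefSeq window on GRCm38.p6 of 300 bases, 250 before and 50 after an annotated start, written 5′ to 3′ on the gene's strand. Capitals mark every match, on either strand, to 6 fixed words: the E-box CACGTG, its variant CACGTT, the D-box TTATGTAA, the RORE cores TAGGTCA and TGGGTCA (bound by REV-ERB and ROR), and the cAMP response element TGACGTCA.
Arntl (chr7:113207261-113207560, plus strand): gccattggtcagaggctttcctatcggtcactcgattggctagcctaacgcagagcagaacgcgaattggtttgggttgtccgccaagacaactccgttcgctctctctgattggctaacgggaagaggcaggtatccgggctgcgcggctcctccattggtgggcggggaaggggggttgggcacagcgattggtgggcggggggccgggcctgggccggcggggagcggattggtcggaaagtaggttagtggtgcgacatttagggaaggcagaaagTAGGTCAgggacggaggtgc
Cry1 (chr10:85185005-85185304, minus strand): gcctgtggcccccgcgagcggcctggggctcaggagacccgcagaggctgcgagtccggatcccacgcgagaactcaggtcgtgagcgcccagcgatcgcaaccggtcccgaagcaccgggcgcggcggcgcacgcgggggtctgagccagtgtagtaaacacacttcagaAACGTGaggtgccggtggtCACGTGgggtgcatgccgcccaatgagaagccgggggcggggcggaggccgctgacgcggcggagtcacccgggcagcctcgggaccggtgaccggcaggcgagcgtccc
Per1 (chr11:69098699-69098998, plus strand): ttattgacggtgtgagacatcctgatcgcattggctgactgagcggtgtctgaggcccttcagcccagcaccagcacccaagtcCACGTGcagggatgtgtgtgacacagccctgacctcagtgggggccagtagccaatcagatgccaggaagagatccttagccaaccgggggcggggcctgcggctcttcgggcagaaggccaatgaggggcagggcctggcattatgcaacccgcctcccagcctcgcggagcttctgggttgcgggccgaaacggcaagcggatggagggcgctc
Per3 (chr4:151044616-151044915, minus strand): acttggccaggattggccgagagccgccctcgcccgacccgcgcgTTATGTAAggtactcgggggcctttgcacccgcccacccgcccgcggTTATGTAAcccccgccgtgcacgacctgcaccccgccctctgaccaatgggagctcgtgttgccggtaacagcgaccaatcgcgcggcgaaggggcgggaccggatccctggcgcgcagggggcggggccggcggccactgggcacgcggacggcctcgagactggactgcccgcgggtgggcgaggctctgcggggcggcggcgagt
Ciart (chr3:95882179-95882478, minus strand): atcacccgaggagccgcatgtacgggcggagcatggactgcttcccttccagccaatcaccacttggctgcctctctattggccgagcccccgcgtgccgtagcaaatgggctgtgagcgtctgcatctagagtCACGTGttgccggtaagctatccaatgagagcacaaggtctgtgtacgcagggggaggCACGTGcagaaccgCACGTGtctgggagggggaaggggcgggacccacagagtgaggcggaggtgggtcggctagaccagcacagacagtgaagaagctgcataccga

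Of the 10 members, 9 had a window in the table, 13 windows in all, and Per2 had none. Matches were found in 6 members. Ciart held 3 E-boxes, at 116, 58 and 44 bases before the start. Per1 held 1 E-box, 166 bases before the start of the window shown, and Cry1 held 1 at 60 bases with a CACGTT on the opposite strand at 79. Cry2 held a CACGTT on the opposite strand, 166 bases before its start. Per3 held the D-box letters at 205 and again at 158 bases, and Arntl held a RORE core 30 bases after the start in the window shown, 1 of its 2. Clock, Npas2 and Dbp had no match in these windows, and neither TGGGTCA nor TGACGTCA occurred in any member. For comparison, of all 32851 windows 7.15% held CACGTG, 4.68% CACGTT, 0.938% TTATGTAA, 2.61% TAGGTCA, 3.98% TGGGTCA and 1.79% TGACGTCA. A match describes letters and not binding, and the absence of one says only that these letters are not in the window.

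The libraries held 50121771 and 39003197 counted reads, so that a count of 0, allowing up to 3 reads, meant at most 0.0599 CPM (a gene's reads scaled to the library total) in library 1 and 0.0769 CPM in library 2. All 8 beta-cell markers checked were present, in keeping with the label, and summed to 177200 and 180800 CPM. Of these 8, 5 were higher and 3 lower in library 2, from Slc2a2 at 1.40-fold lower to Ucn3 at 1.25-fold higher. Markers of other cells also differed between the libraries. Of 8 acinar markers, 5 were detected and all 5 were higher in library 2, with sums of 82.55 and 373.4 CPM; Prss1 was at 0 in both libraries and Ptf1a at 0 in library 1. The 4 alpha-cell markers summed to 512.7 and 370.2 CPM and the 3 delta-cell markers to 1650 and 1220 CPM, all 7 lower in library 2. The PP-cell gene Ppy stood at 631.5 and 878.8 CPM, and 3 ductal markers summed to 37.31 and 44.69 CPM. Endothelial (3), mesenchymal (4), immune (3) and glial (2) markers summed to at most 10.06 CPM per list in either library. Counts of the floxed genes do not check the deletion, since they sum all exons: Myt1 stood at 77.63 and 65.43 CPM, Myt1l at 44.49 and 39.05 CPM and St18 at 72.7 and 56.48 CPM.

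All 10 clock genes were expressed. Each reached 1 CPM in both libraries, as did 24.4% of all listed genes, and the lowest count of any member was 210 reads, for Ciart in library 2. Compared per length, as TPM, which also divides by gene length, their levels ran from 82.1 TPM for Per1 to 5.50 TPM for Npas2, with a median of 19.1 TPM. The median of the 13566 genes detected in both libraries was 14.8 TPM. In bulk RNA a lower level can mean fewer expressing cells or less RNA per cell, which cannot be told apart. Values below are given for library 1 and then library 2, with the mean ± SD (n = 2).

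Among the activators, Clock was the most abundant. Clock encodes the basic helix-loop-helix PAS partner of ARNTL. It had 7042 and 5568 reads, or 28.2 and 28.32 TPM, a mean of 28.26 ± 0.085 TPM (SD, n = 2). Those values were the closest of any member, an SD of 0.301% of the mean. Arntl, which encodes the shared partner in the activating pair, had 917 and 1014 reads, or 6.70 and 9.41 TPM, a mean of 8.055 ± 1.92 TPM (SD, n = 2). Library 2 was the higher. Npas2, whose protein can take the place of CLOCK, was the lowest member by mean TPM, at 469 and 386 reads, or 5.381 and 5.625 TPM (5.503 ± 0.173, SD, n = 2). In library 2 Per3 lay lower still, and Ciart had fewer reads in both libraries. On GRCm38 (GENCODE M21), Clock (ENSMUSG00000029238) spans chr5:76209868-76304792 on the minus strand with 24 merged exons, Arntl (ENSMUSG00000055116) spans chr7:113207465-113314126 on the plus strand with 22, and Npas2 (ENSMUSG00000026077) spans chr1:39193731-39363236 on the plus strand with 23.

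The repressors held the highest levels and also a low one. Per1, an immediate target of light and cAMP signals as well as of the clock, led all members with 7834 and 7076 reads, or 76.47 and 87.73 TPM, a mean of 82.1 ± 7.96 TPM (SD, n = 2). It ranked at position 1284 and 1093 among all listed genes by TPM. Cry2, a cryptochrome that binds and silences the activating pair, came next with 5662 and 5177 reads, or 49.24 and 57.19 TPM (53.21 ± 5.62, SD, n = 2). Per2, the period protein whose stability sets much of the clock's pace, had 2811 and 2768 reads, or 26.38 and 33.0 TPM (29.69 ± 4.68, SD, n = 2). All 3 stood higher in library 2.

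Cry1, the stronger and later repressor of the cryptochrome pair, had 914 and 1075 reads, or 15.04 and 22.47 TPM, a mean of 18.76 ± 5.25 TPM (SD, n = 2), again higher in library 2. Per3, a period paralog that the core loop can do without, was the lowest repressor with 1424 and 752 reads, or 8.146 and 5.464 TPM (6.805 ± 1.90, SD, n = 2). It was the only repressor that stood lower in library 2. Per1 (ENSMUSG00000020893) is compact, at chr11:69095217-69109960 on the plus strand with 24 merged exons. Per2 (ENSMUSG00000055866) lies at chr1:91415982-91459324, Per3 (ENSMUSG00000028957) at chr4:151003652-151044665, Cry1 (ENSMUSG00000020038) at chr10:85131700-85185064 and Cry2 (ENSMUSG00000068742) at chr2:92403646-92434043, all on the minus strand.

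Of the clock-controlled genes, Dbp encodes a D-box activator of the PAR bZIP family and is a textbook readout of E-box activity. It had 1297 and 654 reads, or 23.82 and 15.25 TPM, a mean of 19.54 ± 6.06 TPM (SD, n = 2). This was the largest relative spread among the members, an SD of 31.0% of the mean, with library 1 the higher. Ciart, an E-box-driven repressor of the activating pair, had 309 and 210 reads, or 7.512 and 6.484 TPM (6.998 ± 0.727, SD, n = 2), also with library 1 the higher. Dbp (ENSMUSG00000059824) lies at chr7:45705088-45710203 on the plus strand and Ciart (ENSMUSG00000038550) at chr3:95878503-95882251 on the minus strand. The exons of Dbp overlap those of the antisense gene Sphk2 over 539 bases, 18.0% of the merged exons. The kit does not mark strand, so reads there cannot be assigned to either gene, and the count of Dbp is uncertain to that extent. Sphk2 had 1822 and 1678 reads. An unexpressed pseudogene, Gm9176, with 0 and 1 reads, shares 11.9% of the 50-base words of Ciart. Of the other members, Cry2 had the largest overlap with an antisense gene, 4.67% of its exons.

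**Figure D1:**
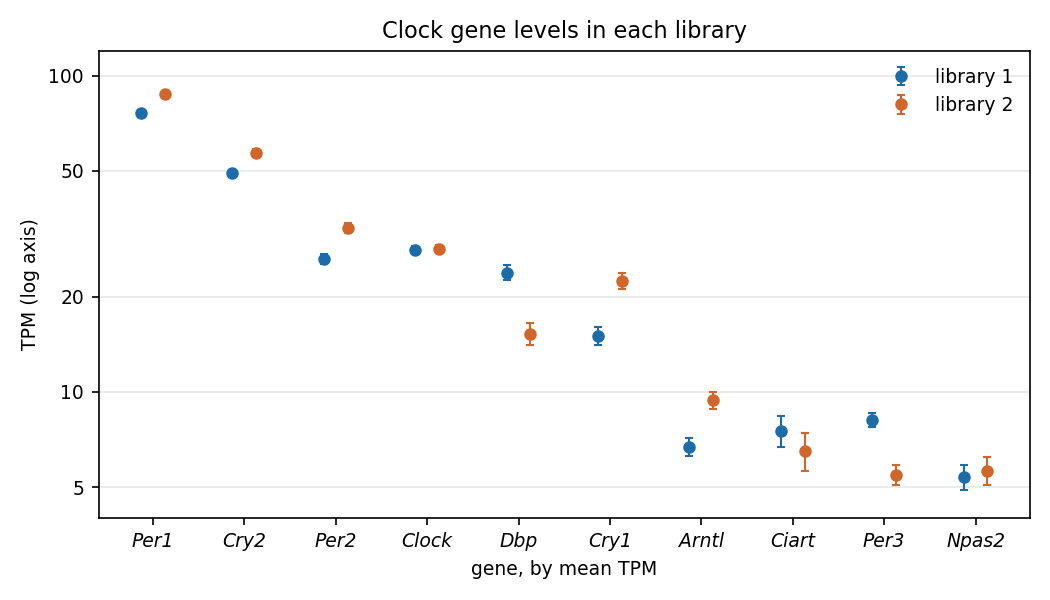
Level of each clock gene in TPM (log axis) in library 1 and library 2, ordered by mean TPM; points are single libraries and bars are exact 95% binomial intervals, which cover counting error only. Per1 and Cry2 stand above all others in both libraries, while Dbp and Cry1 change places between the libraries.

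The order of the members by level was only partly fixed by these data. Of the 9 steps between neighbours in the order Per1, Cry2, Per2, Clock, Dbp, Cry1, Arntl, Ciart, Per3, Npas2, 4 held in both values and in the counting intervals of both libraries. Those were Per1 over Cry2 (1.55-fold and 1.53-fold), Cry2 over Per2 (1.87-fold and 1.73-fold), Clock over Dbp (1.18-fold and 1.86-fold) and Cry1 over Arntl (2.25-fold and 2.39-fold). The other 5 steps did not exceed the spread between the libraries. Per2 stood below Clock in library 1 (ratio 0.936, 95% interval 0.895 to 0.978) and above it in library 2 (1.17, 1.11 to 1.22). Dbp exceeded Cry1 1.58-fold in library 1 and stood at 0.679 of Cry1 in library 2. Arntl, Ciart, Per3 and Npas2 formed a low set in which no neighbouring pair could be ordered.

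Ratios within a library show how the members of a family compared, free of the library's depth. For 12 fixed pairs the TPM ratio was computed in each library with an exact 95% interval, and in all 12 both intervals lay on the same side of 1. Clock exceeded its paralog Npas2 5.24-fold (4.77 to 5.77) in library 1 and 5.03-fold (4.54 to 5.60) in library 2. Clock exceeded its partner Arntl 4.21-fold and 3.01-fold, a mean log2 ratio of 1.83 ± 0.34 (SD, n = 2). Arntl exceeded Npas2 by less, 1.25-fold (1.11 to 1.39) and 1.67-fold (1.49 to 1.89).

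Within the period family the spacing was wide. Per1 exceeded Per2 2.90-fold (2.78 to 3.03) and 2.66-fold (2.54 to 2.78), close in both libraries. Per1 exceeded Per3 9.39-fold (8.87 to 9.94) in library 1 and 16.1-fold (14.9 to 17.3) in library 2. Per2 exceeded Per3 3.24-fold and 6.04-fold. The intervals for either ratio to Per3 did not overlap between the libraries.

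Cry2 exceeded Cry1 3.27-fold (3.05 to 3.51) in library 1 and 2.55-fold (2.38 to 2.72) in library 2. Cry2 also exceeded Clock, 1.75-fold and 2.02-fold per length, and Per2, 1.87-fold and 1.73-fold. Without length scaling the order of Clock and Cry2 turned, to a mean log2 ratio of 0.21 for Clock over Cry2, since Clock has the most merged exon bases of any member, 13727. Per1 exceeded Cry1 5.08-fold and 3.90-fold, and Dbp exceeded Ciart 3.17-fold and 2.35-fold.

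Of the 12 pairs, Arntl and Dbp, of opposite known phase, differed most between the libraries. The pairs were chosen with earlier results of these data known, so this rank only describes them. A difference in clock phase between the libraries was not tested. Dbp exceeded Arntl 3.56-fold (95% interval 3.26 to 3.87) in library 1 and 1.62-fold (1.47 to 1.79) in library 2. The log2 ratio of Arntl over Dbp moved from -1.83 to -0.70, a shift of 1.13, the largest of the 12 pairs. Without length scaling its mean turned to 0.066, with Arntl below Dbp in library 1 and above it in library 2.

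**Figure D2:**
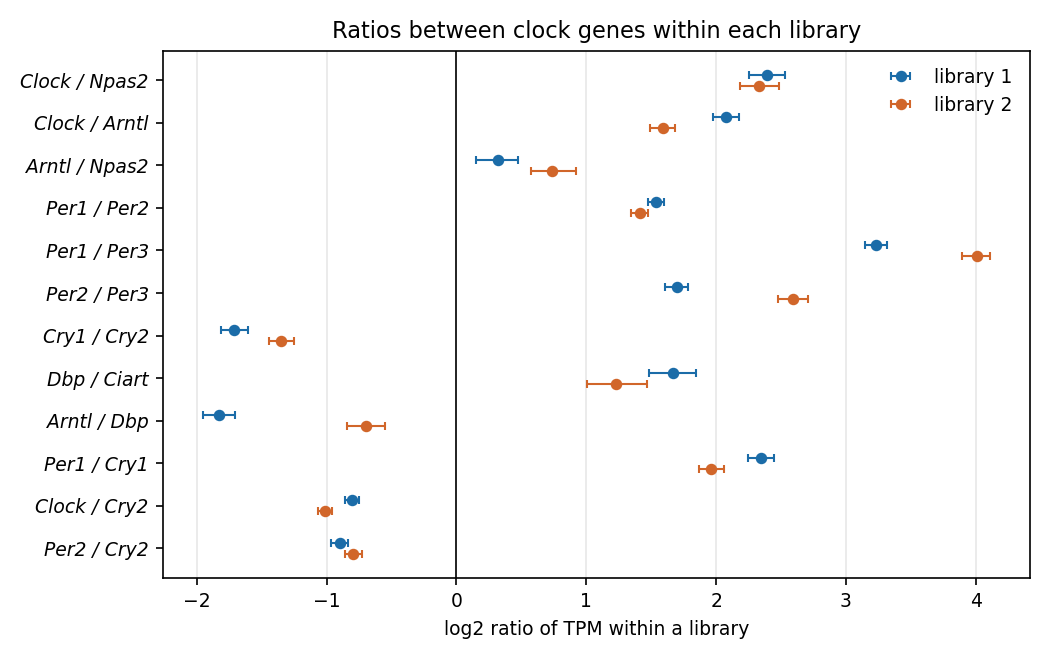
Log2 ratio of TPM between 12 fixed pairs of clock genes within library 1 and within library 2; bars are exact 95% intervals from the reads, and the line at 0 marks equal levels. Clock over Npas2 and Per1 over Per2 are nearly alike in both libraries, while Arntl over Dbp shifts by 1.13 and stays below 0.

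Between the libraries, no clock gene differed by 2-fold, but several differed by more than their counting error and in opposite directions. The 20681 genes that reached 10 summed reads each had an exact binomial test, two-sided, of their reads against the totals, and p-values were adjusted by Benjamini-Hochberg over all of them. No condition differs here, so the test sets 1 library against the other. With an adjusted p under 0.05 and a difference of 2-fold or more, 0 of the 10 members were called, beside 1.91% of all genes tested called higher and 2.40% called lower in library 2. At an unadjusted p under 0.05, 7 members passed, beside 39.8% of all genes tested and 56.7% of the 10793 genes whose mean was at least 5 CPM, a level that all members reached. With edgeR's or DESeq2's scaling of the libraries the count under the 2-fold rule was also 0. With the adjusted p alone, 5 members were higher in library 2, beside 13.4% of all genes tested, and 2 were lower, beside 19.0%. Of the genes at 5 CPM or above, 20.7% were higher and 28.0% lower by that rule, which at this depth passes small differences.

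The members higher in library 2 were Cry1, Arntl, Per2, Cry2 and Per1. Cry1 stood at 18.24 and 27.56 CPM, 1.51-fold higher in library 2 (95% interval 1.38 to 1.65; exact binomial test, adjusted p = 9.32e-19). Arntl stood at 18.3 and 26.0 CPM, 1.42-fold higher (1.3 to 1.56; exact binomial test, adjusted p = 2.25e-13). These were the largest differences in that direction among the members. Per2 was 1.27-fold higher (1.2 to 1.33), Cry2 1.18-fold (1.13 to 1.22) and Per1 1.16-fold (1.12 to 1.2), with adjusted p-values of 3.83e-17, 1.13e-15 and 2.7e-18 in the exact binomial test.

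The members lower in library 2 were Dbp and Per3. Dbp stood at 25.88 and 16.77 CPM, 1.54-fold lower in library 2 (95% interval 1.40 to 1.70; exact binomial test, adjusted p = 6.35e-19). Per3 stood at 28.41 and 19.28 CPM, 1.47-fold lower (1.35 to 1.61; exact binomial test, adjusted p = 5.17e-17). Clock, Npas2 and Ciart did not pass. Their ratios of library 2 over library 1 were 1.02 (0.981 to 1.05), 1.06 (0.922 to 1.21) and 0.874 (0.729 to 1.04), with adjusted p-values of 0.564, 0.616 and 0.266 in the exact binomial test. The interval for Ciart still holds a level in library 2 that is 1.37-fold lower.

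Cry1 and Dbp lay just past a 1.5-fold difference and Per3 just under it. At 1.5-fold, 1 member was called higher and 1 lower in library 2, beside 3.30% and 4.75% of all genes tested, or 2.04% and 2.22% of the 10793 genes at 5 CPM or above. The median size of the log2 ratio, whatever its sign, was 0.29 over the 10 members and 0.12 over those 10793 genes. The signed median was 0.15 over the members and -0.02 over those genes. No member changed direction, and the same 7 passed, under 3 other scalings of the libraries. Those scalings lay close to the library totals, with a median log2 ratio over all genes tested of -0.035 to -0.017, beside -0.041. Agreement under them was therefore a weak check. Any part of the differing acinar, alpha-cell and delta-cell markers in these differences was not tested.

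**Figure D3:**
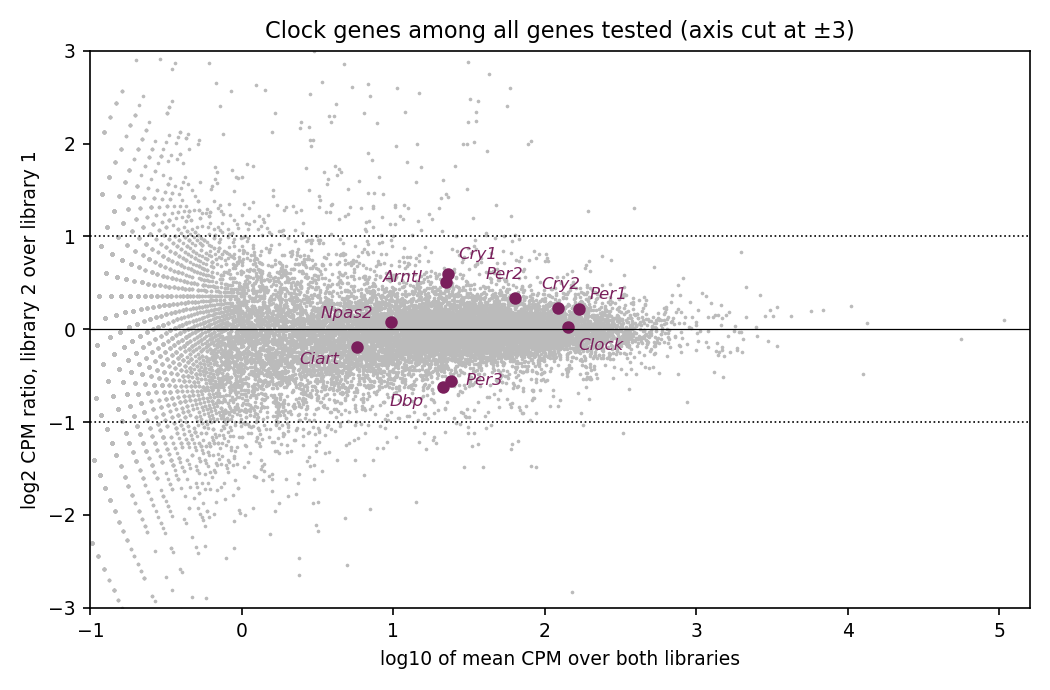
Log2 CPM ratio of library 2 over library 1 against log10 of the mean CPM for all genes tested (grey) and the clock genes (purple); dotted lines mark 2-fold, and 118 genes lie outside the drawn range. All 10 clock genes lie inside the 2-fold lines, with Cry1 and Arntl the highest of them and Dbp and Per3 the lowest.

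Other genes of the clock were taken from a fixed list, by role, and 27 of them are reported. Of these, 26 were detected at 1 CPM or more, their median was 22.1 TPM, and the exception was Rorb, a ROR receptor of retina and brain, at 0.0998 and 0.154 CPM. None of the 27 was called at 2-fold in the exact binomial test. At an unadjusted p under 0.05, 19 passed, beside 39.8% of all genes tested. Among genes at 5 CPM or above, a level that most of the 27 reached, the share was 56.7%. With the adjusted p alone, 4 were higher and 15 lower in library 2, beside 13.4% and 19.0% of all genes tested, or 20.7% and 28.0% of those at 5 CPM or above. Their median log2 ratio was -0.10, beside -0.04 over all genes tested. Under the 3 other scalings 4 or 5 were higher and 13 or 14 lower. The exact binomial test at 1.5-fold called Nfil3 and Wee1 higher and Nr1d1 lower, beside 3.30% and 4.75% of all genes tested.

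The nuclear receptors of the second loop differed in level. In the mean, Nr1d2 stood at 52.04 TPM and Rora at 19.4 TPM, and Rorb lay under 1 CPM. Nr1d1, which encodes REV-ERB alpha, led them by TPM with 91.21 and 57.47 TPM, a mean of 74.34 ± 23.9 TPM (SD, n = 2), beside 82.1 ± 7.96 TPM (SD, n = 2) for Per1. It was 1.57-fold lower in library 2 (95% interval 1.5 to 1.65; exact binomial test, adjusted p = 7.47e-78), and 8.55% of its exons overlap the antisense gene Thra, so its count is uncertain to that extent. Nr1d2 was 1.46-fold lower and Rora 1.26-fold, both past the adjusted p. Of the 4 receptors reported, 3 were thus lower and Rorb, with 5 and 6 reads, did not pass. By the adjusted p alone, 19.0% of all genes tested were lower, and 28.0% of those at 5 CPM or above.

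The bZIP factors went both ways. Nfil3, the repressor at D-boxes, was the highest with 77.46 and 119.9 TPM (98.67 ± 30.0, SD, n = 2) and was 1.57-fold higher in library 2 (95% interval 1.49 to 1.65; exact binomial test, adjusted p = 4.19e-69). Hlf, a PAR bZIP relative of Dbp, was the lowest at 1.892 and 1.327 TPM and was 1.41-fold lower in library 2, and Tef, the other relative, was 1.31-fold lower. Dbp, Tef and Hlf, the 3 PAR bZIP genes measured, stood lower in library 2 and their competitor Nfil3 stood higher. By the adjusted p alone, 19.0% of all genes tested were lower and 13.4% higher. Among genes at 5 CPM or above, the shares were 28.0% and 20.7%, and Hlf, at a mean of 3.922 CPM, lay under that level.

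Among the bHLH factors, the E-box repressor Bhlhe40 was the highest at 57.73 and 59.32 TPM, with a ratio of 1.04 (0.997 to 1.08) that did not pass. Arntl2, the paralog of Arntl, was the lowest at 1.661 and 1.717 TPM, and its mean of 1.689 TPM lay well below the 8.055 TPM of Arntl. Bhlhe41 was 1.09-fold lower in library 2, a call lost with DESeq2's size factors, under which Bhlhe40 passed as higher, and 19.0% of its exons overlap an antisense gene. Among the kinases that modify clock proteins, Csnk1a1 was the highest gene of the whole list at 122.1 ± 12.3 TPM (SD, n = 2), and Csnk1e was the lowest of the kinases at 12.87 ± 2.41 TPM. Of the 5 kinases, 4 were lower in library 2 by 1.05-fold to 1.29-fold, beside 28.0% of all genes at 5 CPM or above. The least of them, Csnk1d, passed under none of the 3 other scalings, and Csnk2a1, which shares 32.5% of its words with other genes, did not pass.

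The ubiquitin enzymes and cofactors lay between 1.27-fold lower and 1.35-fold higher in library 2. Fbxw11, a ligase adaptor for PER proteins, was the highest of its group at 71.19 and 70.62 TPM, and Fbxl21, which encodes an adaptor of a ligase for CRY proteins, was the lowest at 3.725 and 2.897 TPM. In this group 1 of the 4 reported was higher in library 2 (Usp2) and 2 were lower (Fbxl21, Btrc). Among 7 cofactors, the corepressor gene Ncor1 was the highest at 88.92 and 82.02 TPM, and Timeless was the lowest at 0.944 and 1.085 TPM. Of them 1 was higher in library 2, Nampt, whose enzyme makes the precursor of NAD+, at 1.35-fold, and 3 were lower by 1.07-fold to 1.17-fold. The counts of both groups, by the adjusted p alone, stand beside 13.4% higher and 19.0% lower of all genes tested. Among genes at 5 CPM or above the shares were 20.7% and 28.0%. Wee1, a cell-cycle kinase gene controlled by the clock, had 6.752 and 10.68 TPM and was 1.60-fold higher in library 2 (95% interval 1.40 to 1.82; exact binomial test, adjusted p = 1e-11).

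**Figure D4:**
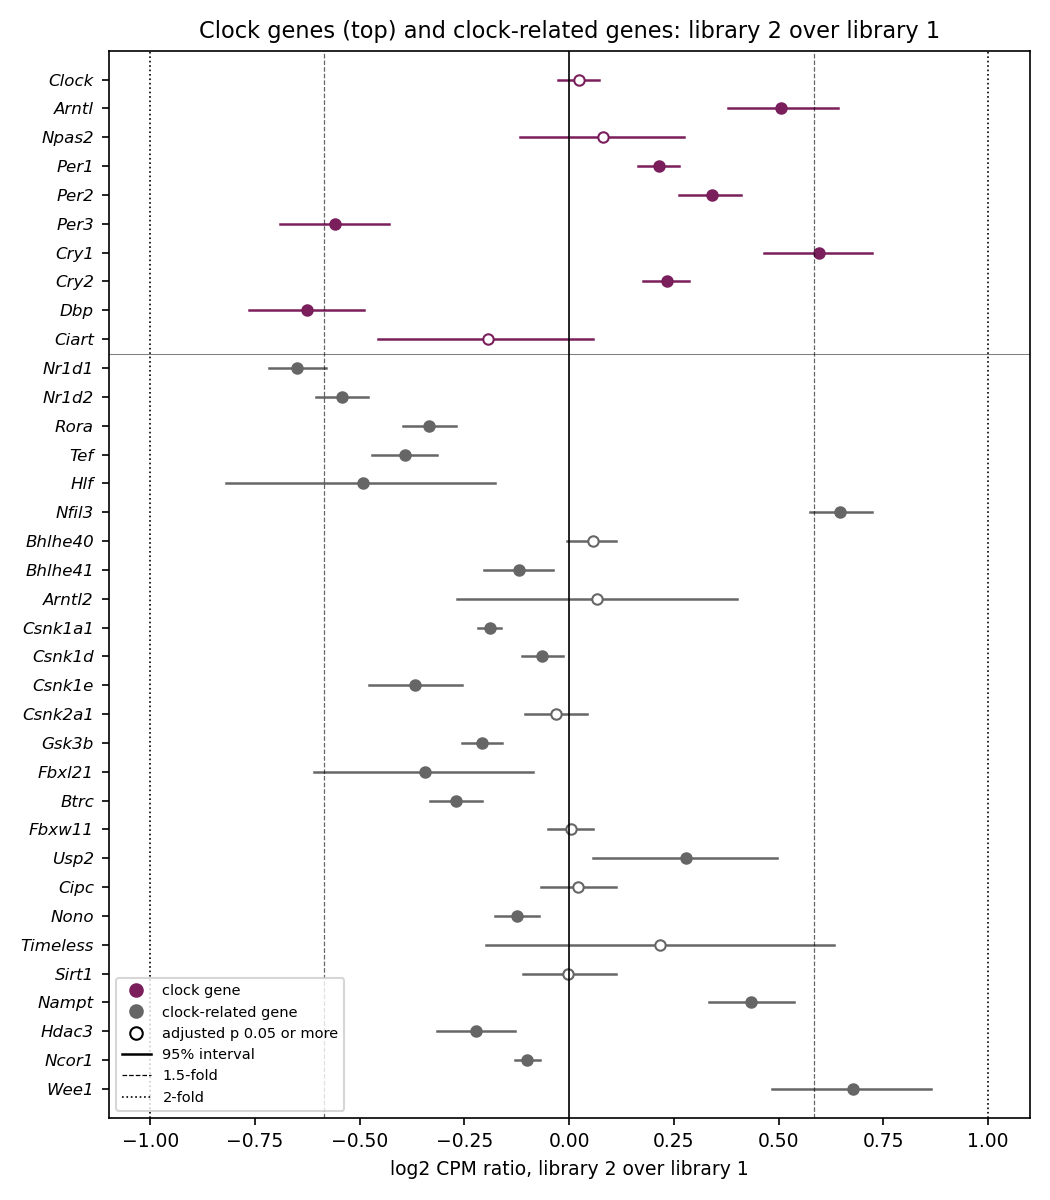
Log2 CPM ratio of library 2 over library 1 for the 10 clock genes (purple) and 26 clock-related genes (grey; Rorb, with 5 and 6 reads, is not drawn); bars are exact 95% intervals, filled points passed the adjusted p of 0.05, and dashed and dotted lines mark 1.5-fold and 2-fold. Arntl, Cry1, Nfil3, Nampt and Wee1 lie farthest to the right, and Per3, Dbp, Nr1d1, Nr1d2 and Hlf farthest to the left.

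Per1, and to a lesser degree Per2, also answer to cAMP and calcium signals through CREB. For both libraries, the cells had been dissociated in 0.25% trypsin at 37 °C for 5 minutes before sorting. Immediate-early and CREB target genes were therefore set beside Per1 and Per2. All 10 were detected, from 26.7 TPM for Crem to 2880 TPM for Fos in the mean, with a median of 1080 TPM against the 82.1 TPM of Per1. Their median log2 ratio of library 2 over library 1 was 0.14, none was called at 2-fold, and all 10 passed at an unadjusted p under 0.05, beside 56.7% of genes at 5 CPM or above. With the adjusted p alone 7 were higher and 3 lower in library 2, beside 20.7% and 28.0% of those genes. At their depth small differences pass, such as a ratio of 1.02 for Fos. At 1.5-fold the exact binomial test called Sik1 (1.79-fold, 1.71 to 1.88) and Nr4a1 (1.59-fold, 1.56 to 1.62) higher. The part of dissociation or of these signals in the level of Per1 was not tested.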

How the data were processed

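Total RNA of sorted mutant beta cells was sequenced in 2 libraries. Per the submitters' processing notes, reads were handled with featureCounts 2.0.2, STAR 2.7.8a and cutadapt 2.10 on the build GRCm38.p6. For their parameters and the strand setting the sources used here give nothing. The deposited raw counts are whole reads per gene, the deposited CPM equals the count over the library total, and the deposited TPM is scaled by gene length, which in 98.35% of 16224 genes lay within 1% of the merged exons of GENCODE M21. The members, lists and pairs were chosen with earlier results of these data known.

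Intervals are exact Clopper-Pearson intervals at 95% and cover counting error only. Genes with 10 or more reads summed were tested with exact binomial tests (scipy 1.17.1), with 0.5 read added for ratios; edgeR's quasi-likelihood test needs a second group and was not run. Where a symbol had several identifiers (109 symbols), the one with most reads was used. A chi-square test over the 20681 genes (592113 on 20680 degrees of freedom) showed that the libraries differ beyond counting noise. The members were named in full; of the 27 clock-related genes, the highest and lowest of each role by TPM, those called and those under 1 CPM were named by rule, and others to complete a count. With 2 libraries, no gene could be named for a similar pattern. The tests were tested on simulated data whose only noise was counting noise, which does not cover the larger spread between the real libraries. Alternatives were edgeR 4.0.16 TMM factors, DESeq2 1.42.0 size factors, totals without the insulin and amylin genes, other filters, folds, added reads and detection limits, CPM for TPM, and each library left out. Protein identity of paralogs was not analysed here, and 2 genes of the clock-related list are not reported here and enter none of its counts.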

Additional observations from a re-analysis of the deposited data

How the results depend on the processing

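No paired analysis was possible because both libraries belong to 1 group. Of 123 recomputed values, 113 were labelled the same, some of them by construction. For a count of called genes, that meant equal to the main count or within 1.5-fold of it. For the log2 ratio of a member, it meant the same direction and the same side of the threshold. The count of called members rose from 0 to 2 at 1.5-fold and to 7 with the adjusted p alone, a rule added after seeing the data. The same settings moved the clock-related genes from 0 to 3 and 19, and all genes from 892 to 1664 and 6699, by construction. Among genes whose mean was at least 5 CPM, also added later, 460 were called at 1.5-fold. In CPM the median level of the members was 23.4 CPM in place of 19.1 TPM. CPM also reversed the mean log2 ratios of Arntl over Dbp, from -1.26 to 0.066, and of Clock over Cry2, from -0.91 to 0.21. Leaving out either library kept all 10 members detected and all 12 pairs on their side. That outcome was fixed in advance, since both already held in each library by itself. The median levels were then 18.9 and 19.4 TPM. A difference between libraries cannot be recomputed with 1 library left out. The fewest reads, those of Ciart, limit its ratio to the widest interval among the members.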
